A study of Mus musculus with 39 samples.

Results

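Astrocytes sorted from tissue labelled PFC were compared between 6 libraries of mice classed as susceptible and 6 libraries of control mice, which are 12 of the 39 libraries of the series. The libraries were assigned to groups by their titles alone, without use of gene values. Earlier results of these data were known when the comparison and the gene lists were chosen. The study exposed male mice to chronic social defeat, in which a mouse meets an aggressor repeatedly and is then sorted into the susceptible or the resilient class from how it interacts socially, and the control mice are labelled as controls with no further detail. Another 5 PFC libraries of resilient mice entered the fit to estimate a shared spread, and 15 libraries labelled NAc, 8 susceptible and 7 control, served to compare the effect between the tissues. No group differs from another by a genotype in the labels, and strain and age were not given in the sources used here. PFC is read here as prefrontal cortex and NAc as nucleus accumbens. The isolation protocol attached to every library names NAc punches, also for the libraries whose tissue label reads PFC.

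Astrocytes take up glutamate and potassium released by neurons, supply lipids and metabolites, and cover blood vessels with their endfeet. The bead sort uses ACSA-2, a surface epitope on the sodium pump subunit encoded by Atp1b2, which astrocytes carry and most other brain cells lack. The prefrontal cortex sends glutamatergic projections to the nucleus accumbens, and both regions are widely studied in social defeat. CREB, the transcription factor named in the title of the series, is phosphorylated downstream of cAMP and of calcium and binds promoters of many stimulus-dependent genes.

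The RNA was total RNA from picogram amounts, and reads were counted over whole gene spans, introns included. Reads also covered genes that no brain cell transcribes, and the cover of olfactory, vomeronasal and trace-amine receptor genes, 1479 genes in all, was used as each library's background. It is given as a percentage of the cover that all reads would give if spread evenly over all genes. Background was 46.8% ± 18.1 in susceptible libraries and 50.5% ± 17.8 in control libraries (SD, n = 6 each). It spanned 13.4% to 65.4% in susceptible libraries and 21.7% to 66.4% in control libraries, and an exact two-sided permutation test of the difference of means gave p = 0.712. Total counts were 1222948 to 18105383 in susceptible libraries and 5801113 to 28212160 in control libraries (exact permutation p = 0.182). Several libraries stood apart within their group. Susceptible replicate 1 had the lowest background and the highest neuronal transcripts of its group, and control replicate 2 had the lowest background of the controls. Susceptible replicate 6 was the shallowest at 1222948 counts. Susceptible replicate 3 had the highest background of its group and the lowest astrocyte transcripts of the 12 libraries. Beside the median of a gene list, parentheses give the lowest and the highest median when each of the 12 libraries was left out in turn.

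Astrocyte transcripts lay well above background. Atp1b2 lay 147 times above background over the 17 PFC libraries, the glutamate transporter gene Slc1a2 72.9 times, and all 28 astrocyte identity markers listed were at least 2 times above it. The region labels were less sharply reflected. Slc17a7, the vesicular glutamate transporter of cortical projection neurons, had medians of 25 and 43.4 CPM of the library total (counts relative to each library's total) in PFC susceptible and PFC control libraries, against 14.3 and 10.5 in NAc susceptible and NAc control libraries. Its ranges overlapped between the tissues in the susceptible groups, from 12.3 to 155 in PFC and from 9.29 to 25.9 in NAc. Drd1, a dopamine receptor of striatal projection neurons, had medians of 2.06 and 2.47 in PFC susceptible and PFC control libraries, against 3.47 and 3.15 in NAc susceptible and NAc control libraries.

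No gene differed between susceptible and control PFC astrocytes past the threshold. Of 12256 genes at least 2 times above background, 0 (0%) had an adjusted p under 0.05 by edgeR's quasi-likelihood test with Benjamini-Hochberg adjustment and the background percentage as covariate, and the smallest adjusted p was 0.90. At an unadjusted p under 0.05 there were 674 genes (5.5%), where 613 would be reached under uniform p-values. Of these, 239 genes (1.95%) stood higher and 435 (3.55%) lower in susceptible libraries. DESeq2 called 1 gene, Acta2, and gave 864 genes an unadjusted p under 0.05. Limma-voom with library weights called 0 and gave 1238 genes such a p. The 674 rested on the covariate and on single libraries. There were 191 without the covariate, 210 without control replicate 2, 427 without susceptible replicate 6, 443 without susceptible replicate 2 and 1434 without susceptible replicate 3. Without both shallowest libraries, an alternative chosen after seeing the data, 0 genes were called and 525 had such a p. The median log2 fold change over all genes tested was 0.01, and the median standard error was 0.18 on the same scale. All values that follow are estimates that did not pass adjustment, unless another tool is named. The 24 leading genes, 12 in each direction, are those of smallest unadjusted p, and each had an adjusted p of 0.90.

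**Figure D1:**
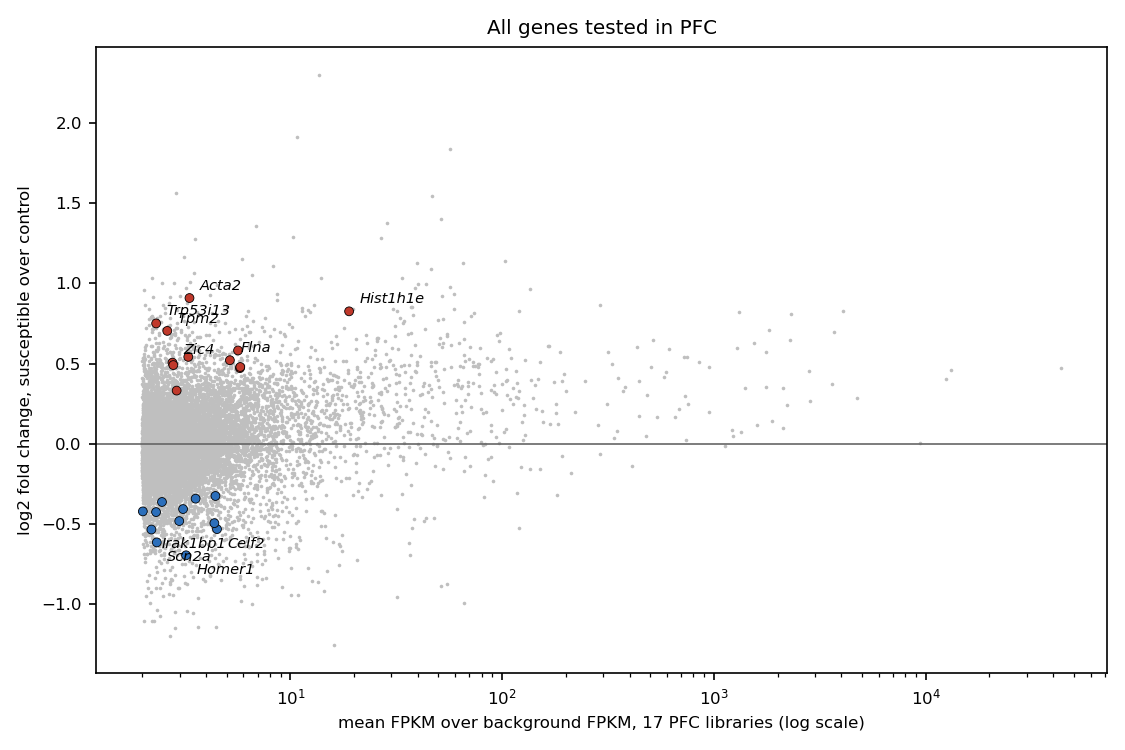
Each point is a gene tested in the PFC libraries. The horizontal axis is its mean FPKM divided by the background FPKM on a log scale, and the vertical axis is the log2 fold change of susceptible over control libraries; red and blue points are the 24 leading genes by unadjusted p, and genes far above background lie mostly above 0.

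With all libraries in the fit, the direction of the estimates shifted with how far a gene lay above background. Among 6702 genes at 2 to 3 times background, 45.0% had a fold change above 0, with a median of -0.02. The share was 54.9% of 3383 genes at 3 to 5 times, 62.1% of 1341 genes at 5 to 10 times and 72.2% of 493 genes at 10 to 30 times. Among the 337 genes at 30 times background or more, 84.6% had a fold change above 0, with a median log2 fold change of 0.34. This lean of the most abundant genes rested on 1 library: without susceptible replicate 2 their median was -0.19 and 32.7% had a fold change above 0, while leaving out any other of the 12 libraries left the median above 0. Over all genes tested, 51.8% had a fold change above 0. The part of a gene's height above background in the list results was not tested.

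Acta2 had the smallest p of the comparison. It encodes the smooth muscle alpha-actin that marks arteriolar smooth muscle and some pericytes. For each gene the lowest, the median and the highest value of the 6 libraries of a group are given in that order, in CPM scaled by TMM, edgeR's normalization between libraries. Acta2 had 34.8, 42.8 and 73.5 CPM in susceptible libraries, against 18.3, 25.5 and 31.6 CPM in control libraries. All 6 susceptible libraries lay above all 6 control libraries, a separation that 6 of all genes tested (0.049%) showed in this direction. Whether this share exceeds what random grouping of the libraries would give was not tested. A lack of overlap is therefore not read as evidence of a difference, for Acta2 or for the genes without overlap named below. Susceptible replicate 1 had the highest Acta2 value, and the resilient libraries lay at 16.5 to 26 CPM. The log2 fold change was 0.91 ± 0.18 (SE), with an adjusted p of 0.90 by edgeR and 0.0454 by DESeq2. It stayed between 0.70 and 0.99 when each library was left out in turn. Acta2 lies on chromosome 19 at 34241090 to 34255590, minus strand, mm10, and no other annotated gene overlaps it. The 250 bases before its RefSeq start (GRCm38.p6, that is mm10, chr19:34255374-34255623, minus strand) are shown because it is the gene the comparison ranks first and because they hold a motif that smooth muscle genes share. That RefSeq start lies inside the gene span given above, as do most of these bases. The distances of the boxes hold for the RefSeq start only. Capitals mark 2 CArG boxes, searched on both strands with at most 1 letter off in the A/T core, which begin 84 and 34 bases before the start:
Acta2: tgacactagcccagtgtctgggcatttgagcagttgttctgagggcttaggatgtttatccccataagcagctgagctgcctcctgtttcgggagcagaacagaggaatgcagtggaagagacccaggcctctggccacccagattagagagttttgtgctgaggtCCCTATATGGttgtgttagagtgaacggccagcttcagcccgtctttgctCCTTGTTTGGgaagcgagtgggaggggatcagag
Among 32851 RefSeq promoter windows of mouse genes, 8.59% held at least 1 such box and 0.670% held 2 or more. The match describes the letters only. The cAMP response element that CREB binds was to be counted in the promoters of called genes, and with 0 genes called there was none to count.

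Among the 12 leading genes that stood higher in susceptible libraries, Tpm2, a tropomyosin of muscle and smooth muscle thin filaments, had 14.3, 21 and 24.9 CPM in susceptible libraries, against 7.84, 13.4 and 19 CPM in control libraries. The groups overlapped through susceptible replicate 2 and control replicates 1 and 4, and the log2 fold change was 0.70 ± 0.20. Flna, the actin cross-linker filamin A, had 65.6, 106 and 186 CPM in susceptible libraries, against 48.2, 52.2 and 131 CPM in control libraries, and a log2 fold change of 0.52 ± 0.14. Myh14, a nonmuscle myosin heavy chain, had a log2 fold change of 0.33 ± 0.10, and Synpo2l, an actin-associated protein known from heart and skeletal muscle, had one of 0.49 ± 0.16. All of these overlapped between the groups. The list of pericyte and smooth muscle markers held 12 tested members of 14. All 12 had a fold change above 0, with a median log2 fold change of 0.28 (0.07 without susceptible replicate 2 to 0.33 without control replicate 4), against 0.01 over all genes, and 4 of them had an unadjusted p under 0.05, against 1.95% of all genes in that direction. Besides Acta2 these were Myh11, the smooth muscle myosin, at 0.36 ± 0.13, the adhesion molecule gene Mcam at 0.40 ± 0.18 and Pdgfrb, the pericyte receptor for PDGF-B, at 0.40 ± 0.19. Without susceptible replicate 2, 8 of the 12 were above 0. The summed level of the whole list ran from 637 to 1507 CPM of the library total in susceptible libraries and from 506 to 992 in control libraries. In bulk libraries a different number of mural cells cannot be told apart from a different RNA level per cell.

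**Figure D2:**
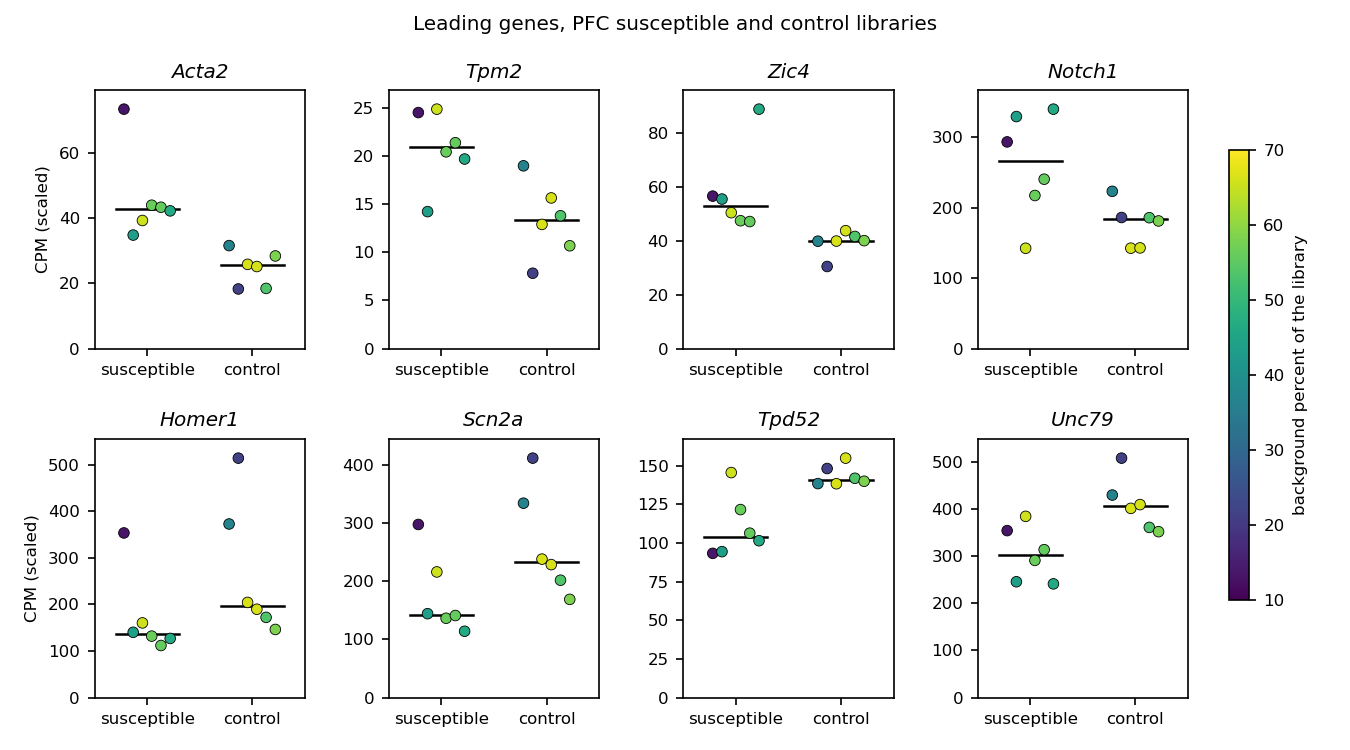
Points are single libraries in scaled CPM on a linear axis from 0, coloured by the library's background percentage, with susceptible libraries left and control libraries right, and the line is the group median. Acta2 and Zic4 separate the groups, and in Homer1, Scn2a and Unc79 the libraries of low background lie high within their group.

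Of the remaining leading genes on the higher side, Zic4, a zinc finger factor of forebrain and hindbrain development, had 47.1, 52.9 and 88.8 CPM in susceptible libraries, against 30.4, 39.9 and 43.7 CPM in control libraries. These ranges did not overlap either, and the log2 fold change was 0.51 ± 0.15. Axl, a receptor tyrosine kinase that binds Gas6 and takes part in phagocytosis, had 100.4, 138 and 169.8 CPM in susceptible libraries, against 87.8, 95.2 and 109.6 CPM in control libraries (log2 fold change 0.47 ± 0.14). The susceptible libraries of Axl overlapped the controls at their lower end only. Notch1, the receptor of the Notch pathway, had 142, 267 and 339.6 CPM in susceptible libraries, against 142, 183 and 223 CPM in control libraries (log2 fold change 0.48 ± 0.15). Slc6a12, the betaine and GABA transporter, had a log2 fold change of 0.54 ± 0.15, and Col11a2, a fibrillar collagen chain, had one of 0.58 ± 0.18. Trp53i13, a p53-induced gene, stood at 0.75 ± 0.21 and the linker histone gene Hist1h1e at 0.83 ± 0.24. Trp53i13 shares span with Abhd15 on the other strand, Zic4 with Zic1, and Hist1h1e with Hist1h2be on its own strand, and the strand setting of the counting was not given in the sources used here, so reads from these neighbours may be mixed. Overlap with at least 1 annotated gene applied to 10 of the 24 leading genes. It also applied to other genes named below, among them Syn1 with Timp1 and Fdft1 with Ctsb.

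Of the 12 leading genes on the lower side, Homer1, a scaffold of the postsynaptic density, had 112, 136 and 353 CPM in susceptible libraries, against 146, 197 and 514 CPM in control libraries, and a log2 fold change of -0.69 ± 0.21. Scn2a, a neuronal voltage-gated sodium channel, had 114, 143 and 298 CPM in susceptible libraries, against 169, 234 and 412 CPM in control libraries, and a log2 fold change of -0.61 ± 0.20. Susceptible replicate 1 and control replicates 1 and 2, the 3 libraries of lowest background among the 12, were the highest of both genes in their groups. Unc79, a subunit of the sodium leak channel complex, had 241, 302 and 384 CPM in susceptible libraries, against 352, 405 and 508 CPM in control libraries (log2 fold change -0.42 ± 0.14). Atp2b1, a plasma membrane calcium pump, stood at -0.49 ± 0.16, the RNA-binding splicing factor gene Celf2 at -0.53 ± 0.18 and Rap2a, a small GTPase of the Ras family, at -0.48 ± 0.15. Rock2, a kinase that acts on the actomyosin cytoskeleton, had a log2 fold change of -0.41 ± 0.12. Tpd52, a tumor protein D52 family gene, had 93.3, 104 and 146 CPM in susceptible libraries, against 138, 141 and 155 CPM in control libraries, and 5 of the 6 susceptible libraries lay below all controls (log2 fold change -0.36 ± 0.12). The others were Irak1bp1 at -0.53 ± 0.15, the pentose phosphate enzyme gene Rpia at -0.42 ± 0.13, Klhdc2, a substrate receptor of a ubiquitin ligase, at -0.34 ± 0.11 and Tcaf1, a TRPM8 channel-associated factor, at -0.32 ± 0.09. Ranges without overlap on the lower side were seen in 4 genes (0.0326%), none of them among these 12: Ociad2, Gm43188, Gtf2h2 and Ank, which are named after their values were seen.

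Markers of general neurons stood lower in susceptible libraries throughout. Of 14 tested members of 18, 0 had a fold change above 0 and all 14 lay below it, as did 48.2% of all genes. The median log2 fold change was -0.56 (-0.81 without susceptible replicate 3 to -0.42 without control replicate 2), and 8 had an unadjusted p under 0.05, against 3.55% of all genes in that direction. Syt1, the calcium sensor of synaptic vesicles, had 461, 580.3 and 1653 CPM in susceptible libraries, against 604, 938 and 2393 CPM in control libraries. Its log2 fold change was -0.69 ± 0.24. Syn1, which tethers synaptic vesicles, stood at -0.75 ± 0.28, the vesicle protein gene Syp at -0.66 ± 0.27 and the splicing factor gene Celf4 at -0.52 ± 0.20. The groups overlapped in each. The 6 members at 3 to 5 times background had a median of -0.50, against 0.02 for all genes there, of which 54.9% were above 0. The 2 members at 2 to 3 times background had a median of -0.22, on the same side of 0 as the -0.02 of all genes there. The median was -0.60 without susceptible replicate 1 and -0.49 without susceptible replicate 1 and control replicate 2 together. The summed level of the whole list ran from 1576 to 5665 CPM of the library total in susceptible libraries and from 1683 to 7280 in control libraries. Every member had counts, which background reads alone can give. Susceptible replicate 1 held the 5665, and control replicates 2 and 1 held 7280 and 4375.

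Cortical excitatory neuron markers had a median log2 fold change of -0.44 (-0.67 without susceptible replicate 3 to -0.35 without susceptible replicate 2), with 3 of 11 tested members of 18 above 0. Slc17a7 had 21.1, 47.5 and 227 CPM in susceptible libraries, against 26.4, 79.4 and 375 CPM in control libraries (log2 fold change -0.91 ± 0.38). The transcription factor gene Neurod6 stood at -0.73 ± 0.32, Camk2a, the calcium and calmodulin-dependent kinase of excitatory synapses, at -0.64 ± 0.32 and the postsynaptic calmodulin-binding protein gene Nrgn at -0.64 ± 0.36. Among immediate early genes, which are transcribed within minutes of neuronal activity, 6 of 20 tested members were above 0 and the median was -0.14 (-0.25 without susceptible replicate 3 to -0.09 without susceptible replicate 6). The nuclear receptor gene Nr4a1 had 34.7, 44.5 and 97.9 CPM in susceptible libraries, against 44.4, 55.3 and 152 CPM in control libraries (log2 fold change -0.56 ± 0.21). Arc, an activity-regulated synaptic gene, stood at -0.75 ± 0.33, Egr1 at -0.77 ± 0.36 and Egr3 at -0.66 ± 0.35. Each of these 4 was highest in susceptible replicate 1 within the susceptible group. The immediate early gene level and the general neuron level were highest in the same 3 libraries, susceptible replicate 1 and control replicates 1 and 2, as the plot of list levels against background shows, and the part of neuronal RNA in the immediate early gene estimates was not tested.

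**Figure D3:**
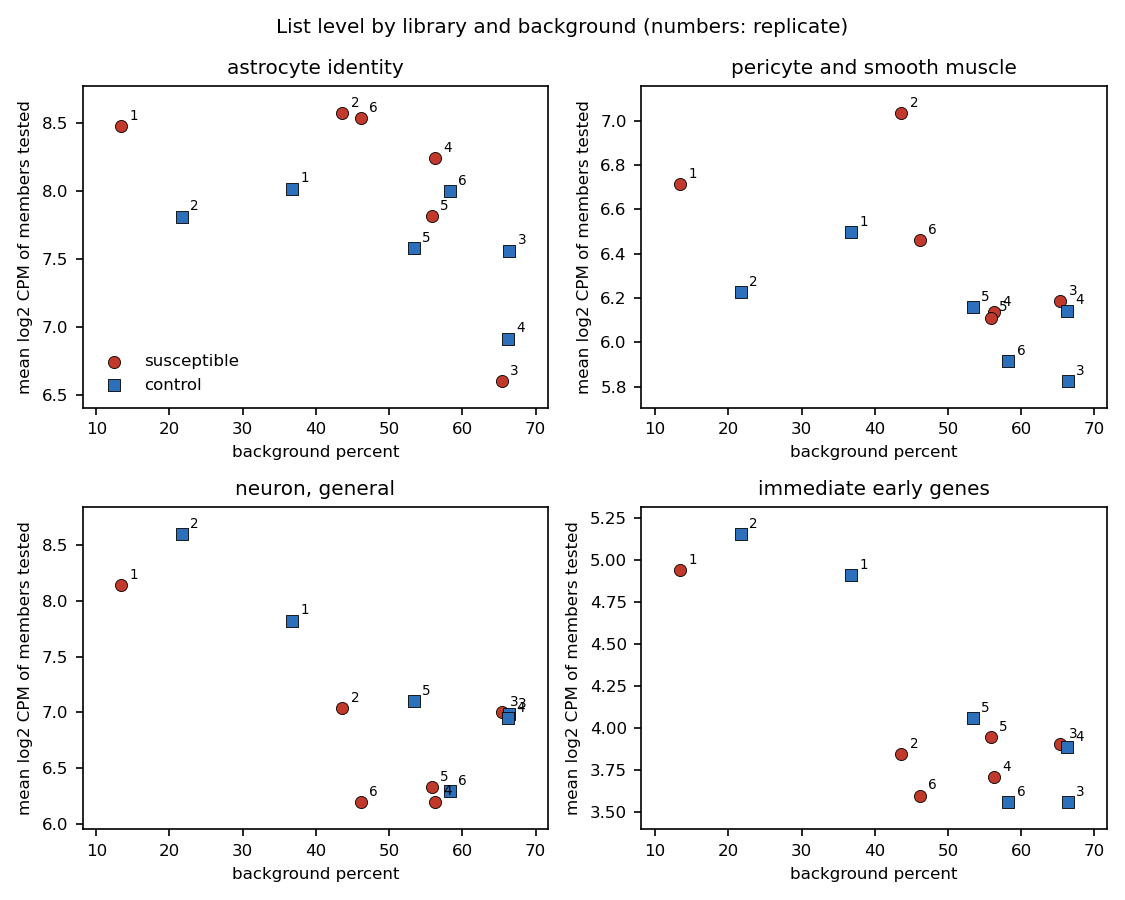
Each point is a library, with the background percentage on the horizontal axis and the mean log2 CPM of the tested members of 4 gene lists on the vertical axis; red circles are susceptible and blue squares control libraries, numbered by replicate. The general neuron level is highest at 8.14 in susceptible 1 within its group and at 8.59 in control 2 within its group, and the astrocyte level is lowest in susceptible 3 at 6.60.

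Astrocyte identity genes stood higher in susceptible libraries in every tested member. All 28 had a fold change above 0, the median log2 fold change being 0.39 (0.27 without control replicate 2 to 0.59 without susceptible replicate 3) and the range 0.07 to 0.68. Of the 28, 2 had an unadjusted p under 0.05 in that direction, against 1.95% of all genes, and 26 were above 0 without susceptible replicate 4. Of these members, 12 lay at 30 times background or more, where their median was 0.44 against 0.34 for all 337 genes of that height. Gfap, the intermediate filament protein of astrocytes, had 34.9, 51.2 and 59.2 CPM in susceptible libraries, against 23.1, 33 and 43.9 CPM in control libraries (log2 fold change 0.53 ± 0.19). The groups overlapped, with susceptible values mostly above those of controls. Aldh1l1, an enzyme of folate metabolism that marks astrocytes, had 212, 273 and 287 CPM in susceptible libraries, against 178, 211 and 245 CPM in control libraries (log2 fold change 0.31 ± 0.13). The most abundant astrocyte genes varied widely within each group. Slc1a2 had 1577, 7732 and 10746 CPM in susceptible libraries, against 2284, 4601 and 6183 CPM in control libraries, and a log2 fold change of 0.49 ± 0.32. Susceptible replicate 3 held the lowest value and control replicate 4 the lowest of the controls. The sister transporter gene Slc1a3 stood at 0.43 ± 0.31, the sorted epitope gene Atp1b2 at 0.40 ± 0.34, the gap junction gene Gja1 at 0.38 ± 0.36 and the water channel gene Aqp4 at 0.30 ± 0.36. Summed over the list, the level ran from 2657 to 15473 CPM of the library total in susceptible libraries and from 3390 to 9220 in control libraries.

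Functional groups of astrocyte genes leaned the same way, none with a member past adjustment. Lists can share genes: Slc6a11, Mlc1 and Gfap, named below, are astrocyte identity members too. The medians of these groups therefore rest partly on the same values as the astrocyte identity list. In glutamate and GABA handling 11 of 14 tested members were above 0, with a median of 0.33 (0.21 without control replicate 2 to 0.49 without susceptible replicate 3). Its exceptions included Got1, a cytosolic aspartate aminotransferase, at -0.34 ± 0.15, while Slc6a11, the astrocyte GABA transporter, stood at 0.32 ± 0.18. In the group of endfoot, water, potassium and gap junction genes 15 of 17 were above 0, with a median of 0.26 (0.17 without control replicate 2 to 0.40 without susceptible replicate 3), led by the connexin gene Gjb2 at 0.58 ± 0.22 and the membrane protein gene Mlc1 at 0.49 ± 0.25. Reactive astrocyte genes had 11 of 12 members above 0 and a median of 0.29 (0.21 without control replicate 3 to 0.51 without control replicate 1). Besides Gfap, the intermediate filament gene Vim stood at 0.60 ± 0.24, the complement gene C4b at 0.54 ± 0.22 and Lcn2, a secreted siderophore-binding protein, at 0.87 ± 0.37, each with overlapping groups. Receptor and calcium genes of astrocytes had 11 of 14 members above 0 and a median of 0.13 (0.06 without susceptible replicate 6 to 0.18 without susceptible replicate 3), with the beta-1 adrenergic receptor gene Adrb1 at -0.47 ± 0.20, the cannabinoid receptor gene Cnr1 at -0.49 ± 0.22, the GABA-B receptor subunit gene Gabbr2 at -0.20 ± 0.11 and the endothelin receptor gene Ednrb at 0.34 ± 0.25. Cnr1 and Gabbr2 were highest in susceptible replicate 1 within the susceptible group, as was the general neuron level. The part of neuronal RNA in their estimates was not tested.

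Lipid genes were higher in susceptible libraries in most members. For cholesterol synthesis all 21 tested members of 23 had a fold change above 0, with a median of 0.22 (0.12 without susceptible replicate 4 to 0.32 without susceptible replicate 3). Without susceptible replicate 4, 15 of the 21 were above 0. The lanosterol synthase gene Lss stood at 0.26 ± 0.15 and the squalene synthase gene Fdft1 at 0.31 ± 0.19. Fatty acid synthesis and oxidation had 18 of 20 members above 0 and a median of 0.25 (0.15 without control replicate 2 to 0.31 without susceptible replicate 3), with the citrate lyase gene Acly at 0.28 ± 0.11, the carnitine palmitoyltransferase gene Cpt1a at 0.28 ± 0.11, the desaturase gene Scd1 at 0.36 ± 0.18 and the regulator Srebf1 at 0.32 ± 0.16. Lipoprotein and lipid carriage had 11 of 15 above 0 and a median of 0.19 (0.12 without susceptible replicate 2 to 0.28 without susceptible replicate 3). Apoe, the main lipoprotein of astrocytes, had 199, 1276 and 1819.8 CPM in susceptible libraries, against 215, 593 and 1312 CPM in control libraries, and a log2 fold change of 0.65 ± 0.38.

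Among developmental and secreted signals, all 31 tested members of 41 growth factor, Notch, Wnt, BMP and hedgehog genes had a fold change above 0, with a median of 0.26 (0.15 without control replicate 2 to 0.31 without control replicate 6), and 6 had an unadjusted p under 0.05 in that direction, against 1.95% of all genes. Besides Notch1, the Notch ligand gene Jag1 stood at 0.30 ± 0.12, the hedgehog effector Gli2 at 0.30 ± 0.13 and the FGF receptor gene Fgfr1 at 0.36 ± 0.16. Jag1 had 51, 58.9 and 81.7 CPM in susceptible libraries, against 36.6, 55.1 and 56.7 CPM in control libraries, and control replicate 2 lay far below the other controls. Fate and regional patterning factors had 19 of 21 above 0 and a median of 0.25 (0.16 without control replicate 2 to 0.36 without control replicate 6), with Zic4 first, the cortical patterning factor gene Dmrta2 at 0.66 ± 0.30, Nfia, a gliogenic factor, at 0.39 ± 0.19 and Zbtb20 at 0.33 ± 0.18. Extracellular matrix genes had 11 of 16 above 0 and a median of 0.22 (0.10 without control replicate 2 to 0.34 without susceptible replicate 3), with the laminin chain gene Lamb2 at 0.50 ± 0.17, neurocan gene Ncan at 0.42 ± 0.21, Timp3, an inhibitor of matrix proteases, at 0.31 ± 0.16 and the perineuronal net gene Tnr at -0.44 ± 0.17. Of synapse-forming and engulfing factors 10 of 15 were above 0, with a median of 0.17 (0.07 without control replicate 2 to 0.23 without susceptible replicate 3). Mertk, a phagocytic receptor related to Axl, stood at 0.46 ± 0.25 and the neuroligin genes Nlgn1 and Nlgn2 at -0.22 ± 0.12 and -0.25 ± 0.13.

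**Figure D4:**
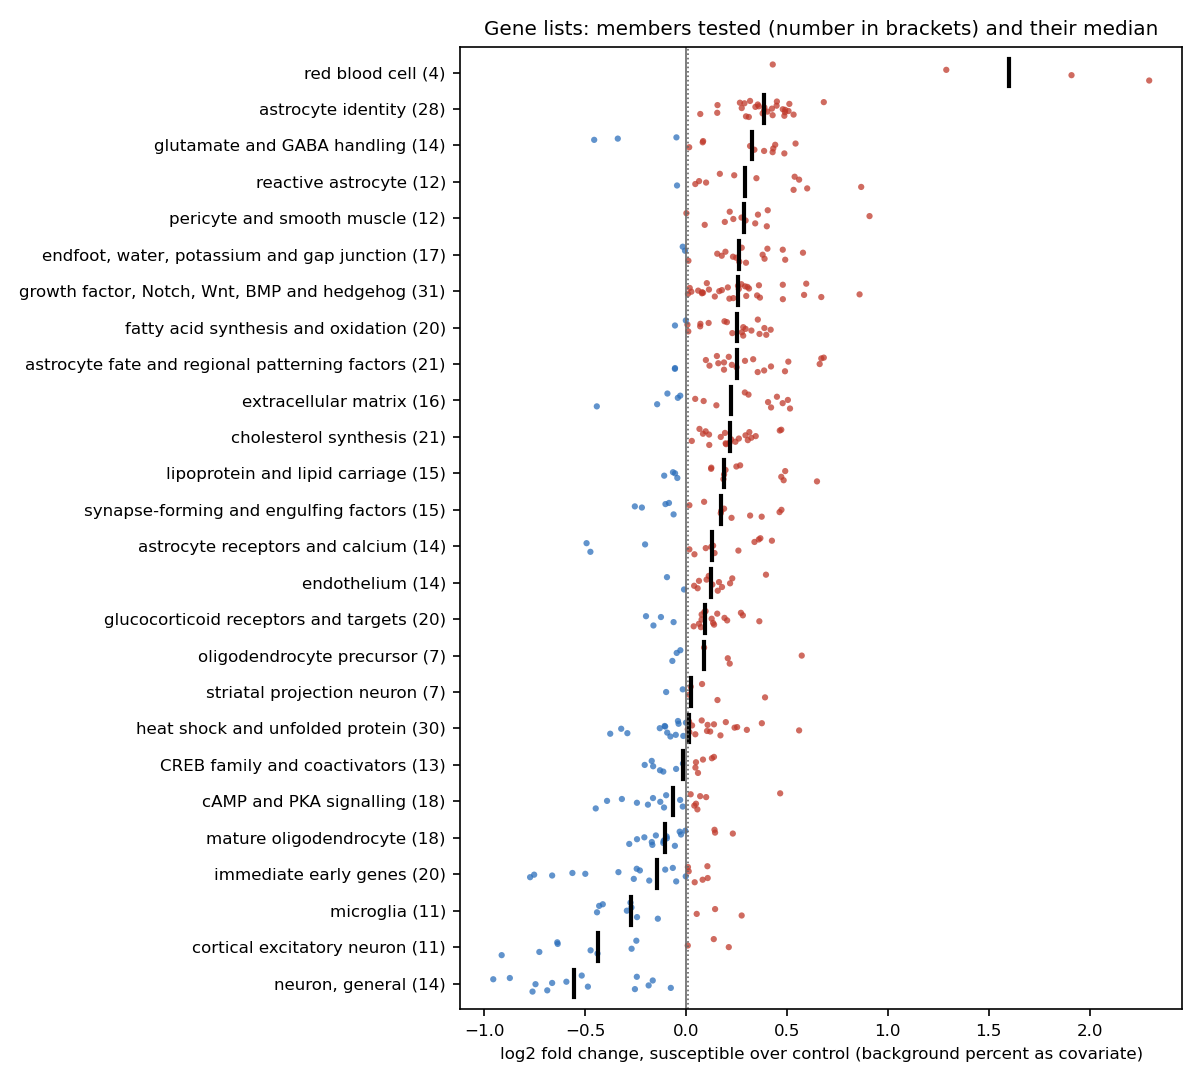
Each row is a gene list with the number of tested members in brackets, each point a member's log2 fold change of susceptible over control libraries (red above 0, blue below), and the black bar the list median; the solid line marks 0 and the dotted line the median of all genes at 0.01. General neuron markers lie wholly below 0, and the astrocyte identity, cholesterol, mural cell and growth factor lists wholly above it.

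List medians for the CREB family and for cAMP signalling lay near 0. Creb1 had 82.8, 98.4 and 121 CPM in susceptible libraries, against 81.3, 95.6 and 104 CPM in control libraries, and its log2 fold change was 0.06 ± 0.10. The groups overlapped over most of their range, and Creb1 lay 2.08 times above background, close to the limit for testing. That limit, 0.737 FPKM, lies little above the median of 0.634 FPKM of 48 genes silent in brain. The part of background reads in the Creb1 estimate was not tested. Atf1, a paralog of Creb1, stood at -0.11 ± 0.11. Of the 13 tested CREB family members and coactivators 6 were above 0, and the median was -0.02 (-0.06 without susceptible replicate 3 to 0.02 without susceptible replicate 4). The coactivator gene Crtc1 stood at -0.21 ± 0.13, the acetyltransferase gene Ep300 at -0.16 ± 0.10 and Crebl2 at -0.17 ± 0.11. Crem, which encodes a cAMP-responsive modulator, lay 1.55 times above background and was not tested. Its FPKM was 0.576 ± 0.072 in susceptible libraries and 0.562 ± 0.089 in control libraries (SD, n = 6 each). In cAMP and PKA signalling 7 of 18 members were above 0 and the median was -0.06 (-0.10 without susceptible replicate 6 to -0.02 without control replicate 2). The catalytic subunit gene Prkacb stood at -0.24 ± 0.10, the adenylyl cyclase gene Adcy1 at -0.45 ± 0.22, the regulatory subunit gene Prkar1b at -0.39 ± 0.20 and Rapgef3, a cAMP-activated exchange factor, at 0.47 ± 0.23.

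List medians for glucocorticoid and heat shock genes lay near 0 as well. Nr3c1, the glucocorticoid receptor, had 162, 203 and 212 CPM in susceptible libraries, against 162, 182 and 194 CPM in control libraries (log2 fold change 0.07 ± 0.09). Fkbp5, a co-chaperone of that receptor and one of its targets, lay 1.65 times above background and was not tested, with an FPKM of 0.599 ± 0.187 in susceptible libraries and 0.621 ± 0.142 in control libraries (SD, n = 6 each). Receptors and targets together had 16 of 20 members above 0 and a median of 0.09 (0.01 without susceptible replicate 2 to 0.18 without susceptible replicate 1), with the kinase gene Pdk4 at 0.36 ± 0.19, the secreted lipase inhibitor gene Angptl4 at 0.27 ± 0.19, Sult1a1 at 0.28 ± 0.19 and the kinase gene Sgk1 at -0.16 ± 0.13. Without susceptible replicate 2, 10 of the 20 were above 0. Heat shock and unfolded protein genes had 17 of 30 above 0 and a median of 0.02 (-0.04 without susceptible replicate 2 to 0.10 without control replicate 1). Within it Pdia4, a disulfide isomerase of the endoplasmic reticulum, stood at 0.38 ± 0.12 and the cytosolic chaperone gene Hsph1 at -0.38 ± 0.15, on opposite sides of 0. The other members named by p were the co-chaperone genes Bag3 at 0.25 ± 0.15 and Dnajb1 at -0.32 ± 0.19.

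Markers of the other cell types that a sort of this kind can hold were measured beside the astrocyte genes. Microglia markers had 3 of 11 tested members of 20 above 0 and a median of -0.27 (-0.36 without control replicate 3 to -0.10 without control replicate 2), with the lectin gene Siglech at -0.43 ± 0.28, Selplg at -0.41 ± 0.27, the complement gene C1qb at -0.44 ± 0.32 and Olfml3 at -0.28 ± 0.20. Mature oligodendrocyte markers had 3 of 18 above 0 and a median of -0.10 (-0.20 without susceptible replicate 2 to -0.04 without control replicate 5), including the myelin genes Mog at -0.28 ± 0.20, Mal at -0.24 ± 0.22 and Ermn at -0.21 ± 0.20, with Fa2h, a fatty acid hydroxylase, at 0.14 ± 0.12. Oligodendrocyte precursor markers had 4 of 7 above 0 and a median of 0.09 (0.04 without control replicate 2 to 0.14 without control replicate 1), led by the lineage factor gene Olig2 at 0.57 ± 0.28, followed by Cspg4 at 0.22 ± 0.17, Olig1 at 0.21 ± 0.36 and Bcas1 at 0.09 ± 0.09. Endothelial markers had 12 of 14 above 0 and a median of 0.12 (0.03 without susceptible replicate 2 to 0.32 without control replicate 1), with the lipid transporter gene Mfsd2a at 0.40 ± 0.21, the glucose transporter gene Slc2a1 at 0.22 ± 0.24, Tie1 at 0.23 ± 0.18 and Flt1, a VEGF receptor, at 0.18 ± 0.14. Without control replicate 6, 7 of the 14 were above 0. Striatal projection neuron markers had 5 of 7 above 0 and a median of 0.02 (-0.05 without susceptible replicate 1 to 0.11 without susceptible replicate 4), with the phosphoprotein gene Ppp1r1b at 0.39 ± 0.17, Adora2a at 0.16 ± 0.16, Gng7 at 0.08 ± 0.12 and Pde10a at -0.10 ± 0.19. The haemoglobin genes had large estimates with large errors, Hba-a1 at 2.30 ± 0.77, Hba-a2 at 1.91 ± 0.66, Hbb-bs at 1.29 ± 0.59 and Hbb-bt at 0.43 ± 0.44. Susceptible replicate 4 held 48.8 CPM of Hba-a1 where the next susceptible library held 9.97 CPM, and without that library the median of the 4 red blood cell genes was 0.33, against 1.60 with all libraries. The alpha-globin genes are near-identical copies whose reads the counting could split. No member of any of these marker lists was without counts in the 12 libraries. Reads also covered genes that no brain cell transcribes, so counts alone do not show that a cell type was present. The part of other cell types in the astrocyte results was not tested.

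The susceptible effect was set against that in NAc in 1 fit of all 39 libraries, which tests the difference between the tissues itself. Of 12771 genes, 0 (0%) had an adjusted p under 0.05 by edgeR, with a smallest adjusted p of 1.00, and 462 (3.62%) had an unadjusted p under 0.05, where 639 would be reached under uniform p-values. There were 182 without PFC control replicate 2 and 895 without PFC susceptible replicate 3. Acta2 had the smallest p, with a log2 fold change of 0.91 ± 0.19 in PFC and -0.18 ± 0.17 in NAc. The difference was 1.10 ± 0.26, and Acta2 was the 1 gene that limma-voom with library weights called (adjusted p = 0.0297). Syngr1, a synaptic vesicle protein gene, stood at -0.55 ± 0.20 in PFC and 0.32 ± 0.18 in NAc, and Fam131a at -0.36 ± 0.17 in PFC and 0.46 ± 0.16 in NAc. Bri3bp stood at -0.28 ± 0.12 in PFC and 0.27 ± 0.11 in NAc, and Lzts2, a beta-catenin binding protein gene, at 0.12 ± 0.16 in PFC and -0.56 ± 0.14 in NAc. Syngr1 shares span with Rpl3, Fam131a with Clcn2 and Lzts2 with Pdzd7, each on the other strand, so reads from these neighbours may be mixed.

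Zic4 and Gfap stood higher in susceptible libraries of both tissues. Zic4 had a log2 fold change of 0.46 ± 0.19 in PFC and 0.67 ± 0.16 in NAc, and the difference between the tissues was -0.21 ± 0.25. Gfap had 0.46 ± 0.19 in PFC and 0.73 ± 0.17 in NAc, with a difference of -0.26 ± 0.25. Neither passed adjustment in either tissue or for the difference. The list medians differed in sign for astrocyte identity, at 0.33 in PFC and -0.07 in NAc, and for general neurons, at -0.58 in PFC and 0.04 in NAc, while cholesterol synthesis had 0.19 in PFC and 0.14 in NAc. For the difference by edgeR, 0 of 28 astrocyte identity, 3 of 12 general neuron and 0 of 20 cholesterol members had an unadjusted p under 0.05. The share over all genes was 3.62%. The differences between list medians were not tested. PFC and NAc libraries may come from the same mice, which the labels do not settle, and the fit treated them as separate mice.

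**Figure D5:**
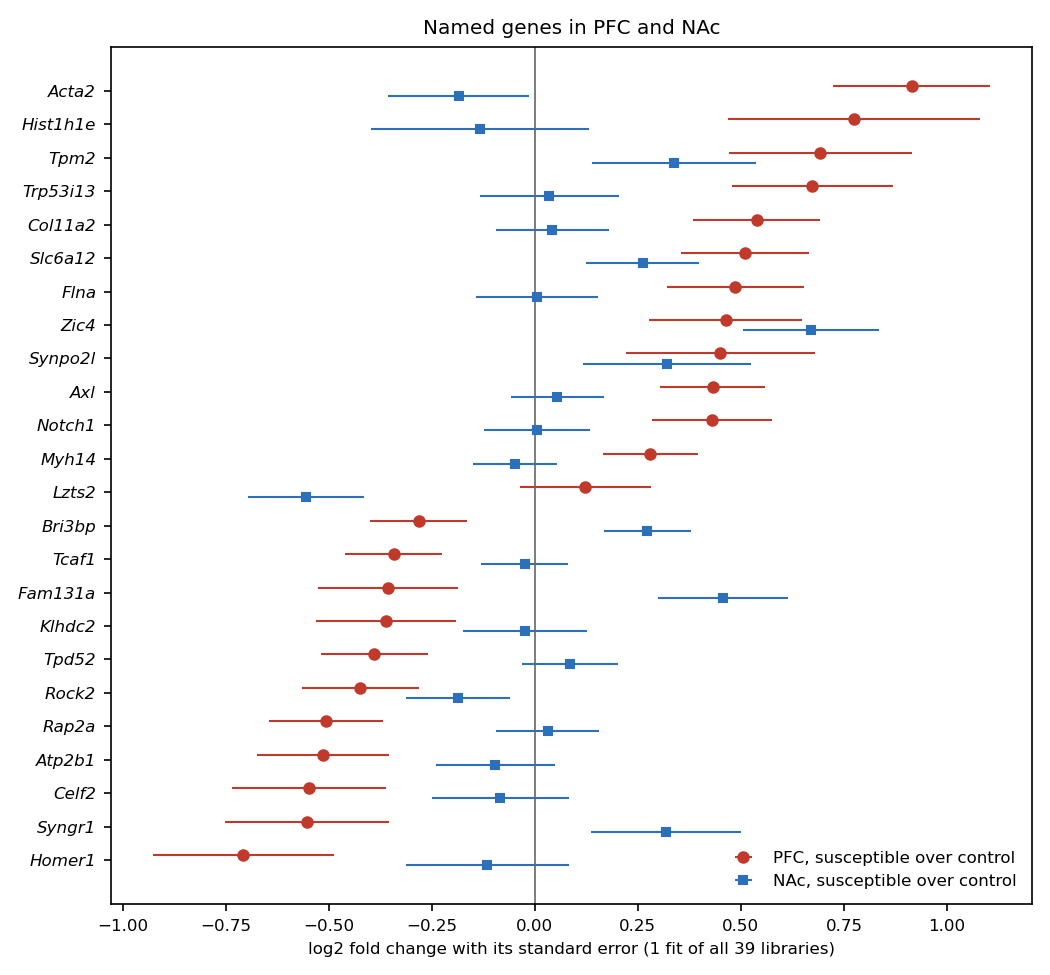
Log2 fold changes of susceptible over control libraries with their standard errors in PFC (red circles) and NAc (blue squares), from 1 fit of all 39 libraries, for the leading genes tested in both tissues and the genes with the smallest p for the difference. Acta2 lies at 0.91 in PFC and -0.18 in NAc, and Zic4 lies above 0 in both.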

How the data were processed

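Deposited tables held counts for 55401 genes, whole numbers that the authors made with featureCounts on mm10 per the submitters' processing notes, and FPKM values made by the authors. Versions, aligner, annotation and the strand used were not given in the sources used here. Lengths behind the deposited FPKM equal whole gene spans for all 54229 genes compared with GENCODE M21 (tolerance 1e-06), so introns are counted. Groups follow the titles; 55141 identifiers were named from GENCODE M21.

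Counts were fitted with edgeR 4.0.16 (TMM, quasi-likelihood test, Benjamini-Hochberg over all genes) to 17 PFC libraries, with the centred background percentage as covariate and 13 residual degrees of freedom. Genes had to pass filterByExpr (minimum count 10), which 32167 did, and a mean FPKM of at least 0.737, 2 times background; 48 genes silent in brain had a median of 0.634, above the receptor genes' mean of 0.369. For 341 genes the p was raised to a Poisson bound. Scripts were tested on simulated data. DESeq2 1.42.0, limma 3.58.1, other filters, scalings, covariates and libraries were tried as alternatives. P-values measure the spread between these libraries, and totals of 1222948 to 28212160 counts limit the precision. 

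The text names the 12 genes of smallest p in each direction, up to 4 members by p of each of 26 lists described, a set of always-named genes, and the 5 smallest p of the tissue difference. Clone-based, predicted and pseudogene symbols were left out of that choice, and 3 list members it selects are not reported here. The comparison and the gene lists were chosen with earlier results of these data known. No label says that replicate numbers mark shared animals, and no block was used.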

Additional observations from a re-analysis of the deposited data

Results flagged for a closer look

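A library far from the 5 others of its group was found for 44 of 250 gene and group combinations tested, where chance gives about 1 in 20. Of the 44, 26 were susceptible replicate 1, the library of lowest background. It was the highest of its group for the synaptic and neuronal genes Syt1 at 1653 CPM, Syn1 at 219 CPM, Syp at 154 CPM, Homer1 at 353 CPM and Nlgn2 at 128 CPM. So it was for Gabbr2 at 1087 CPM and Cnr1 at 82.8 CPM, which are listed above with the astrocyte receptors. The same library was the highest for the cortical genes Slc17a7 at 227 CPM, Neurod6 at 26.8 CPM, Camk2a at 815 CPM and Nrgn at 246 CPM. Among immediate early genes it was the highest for Nr4a1 at 97.9 CPM, Arc at 72.2 CPM, Egr1 at 90.5 CPM and Egr3 at 72.6 CPM. Further genes in which it stood above its group were Celf2 at 4582 CPM, Atp2b1 at 509.6 CPM, Rock2 at 302 CPM, Tcaf1 at 192 CPM, Klhdc2 at 38.4 CPM, Hsph1 at 142 CPM, Dnajb1 at 19.6 CPM, Vim at 195 CPM and Acta2 at 73.5 CPM. It was the lowest for Myh14 at 87.6 CPM and Gli2 at 304 CPM.

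Susceptible replicate 4 stood above its group in the haemoglobin genes Hba-a1 at 48.8 CPM, Hba-a2 at 25.6 CPM and Hbb-bs at 38.4 CPM. Susceptible replicate 6, the shallowest library, was the highest for Zic4 at 88.8 CPM. In the controls, replicate 2 was the lowest for Zic4 at 30.4 CPM, Npc2 at 21.5 CPM and Jag1 at 36.6 CPM and the highest for Got1 at 81.0 CPM, Adrb1 at 45.7 CPM and Adcy1 at 408 CPM. Control replicate 1 was the highest for Slc2a1 at 262 CPM, Gjb2 at 14.3 CPM and Sult1a1 at 18.1 CPM. Control replicate 6 was the highest for the astrocyte genes Slc6a11 at 464 CPM, Mertk at 667 CPM, Nfia at 1242 CPM and Zbtb20 at 2216 CPM, and control replicate 4 was the lowest for Olig1 at 10.1 CPM.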

How the results depend on the processing

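No gene was called by edgeR under any alternative filter, scaling, covariate or set of libraries tried. DESeq2 called 1 gene (Acta2, adjusted p = 0.0454), and 388 genes passed when an unadjusted p under 0.05 and a fold above 1.3 were asked. The count at an unadjusted p under 0.05, 674 in the analysis reported, was 191 without the background covariate. It was 288 at 3 times background, 1058 without the background filter, 155 with neither covariate nor filter and 1238 by limma-voom. With the sample number of the titles as covariate it was 304. Without susceptible replicate 1 and control replicate 2, those of lowest background in their groups, it was 310, an alternative chosen after seeing the data. Leaving out each of the 12 libraries gave 210 to 1434. With the replicate number as a block the count was 858, with 0 called, and the median of the endothelial markers was 0.25, against 0.12 without it. Same-numbered susceptible and control libraries deviated with correlations of 0.0976 to 0.602, and 5 of the 6 pairs were over 0.1. The rule set beforehand asked for every pair over 0.1, so the numbers were not taken as pairs, by a narrow margin. Of the 6 susceptible libraries, 2 correlated best with their own number. A sharing between same-numbered libraries is therefore not excluded. For the difference between the tissues the count was 287 without the covariate, and limma-voom called 1 gene (adjusted p = 0.0297). The count was 182 to 895 when each of the 12 PFC susceptible and control libraries was left out. No NAc library was left out in turn. The cause of these shifts was not tested. The background difference was 2.99 (exact permutation p = 0.771) without susceptible replicate 1, against -3.68 with it, and -9.43 to 2.99 over single omissions. Of 3612 gene values under the alternatives 3607 kept direction and side of the threshold and 1 was stronger. The others reversed, Ermn to 0.082 and Pde10a to 0.0032 with neither covariate nor background filter, and Pde10a to 0.035 without control replicate 2 (-0.29 to 0.035 over single omissions). Without susceptible replicate 1 and control replicate 2 together, Pde10a reversed to 0.0078. Most of these genes were named for a small p in the same fit, so agreement in direction was partly set by that choice. With 0 genes called in the analysis reported, keeping the side of the threshold says little. Depth was lowest in susceptible replicate 6, at 1222948 counts, without which the count was 427, and it was 525 without both shallowest libraries.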
